A study of Homo sapiens with 6 samples.

Results

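The genes described are those of the cytosolic ribosome: the RPL genes of the large subunit and the RPS genes of the small subunit. They were chosen by symbol, as probe sets annotated to 1 gene named RPL or RPS with a number and an optional A or X, or RPLP0, RPLP1, RPLP2 or RPSA, without pseudogenes, RPS6 kinases and paralogs whose name carries an L. The rule found 52 of the 19775 genes with a single-symbol probe set, 32 of the large and 20 of the small subunit, on 111 probe sets. Each gene was read from its brightest probe set. RPLP0, RPL5, RPL23, RPL26, RPL10, RPSA and RPS27A have no probe set that meets the rule here. A further 64 probe sets carry a ribosomal protein symbol together with other symbols and were left out. Of the 52 genes, 51 reached the level needed for testing, a mean log2 level of 4.42, which is the median of all probe sets that are not controls. The exception was RPL36A, at 3.68 and 3.59 in Namalwa, 3.47 and 3.50 in Raji and 3.47 and 3.71 in Ramos (empty, then miR26a).

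RNA was measured on 6 Affymetrix U133 Plus arrays from Namalwa, Raji and Ramos, established lines of Burkitt lymphoma, a B-cell cancer in which a translocation drives MYC. A line contributed an empty and a miR26a sample, 1 array each, which makes 3 arrays in either group. The lines had been transfected and were given doxycycline at 0.5 µg/ml for 72 h to switch on the microRNA, and all 6 samples list that treatment, the empty ones too. The title puts miR-26a between MYC and EZH2, and miR26a against empty asks which RNAs differ when the microRNA is induced. The labels name neither the promoter nor the construct nor the number of clones or cultures behind a sample, and the spread behind every p-value is that between these samples, which may be technical.

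A ribosome takes 1 copy of nearly every one of these proteins, and a growing cell spends much of its transcription on their messages. Most of the messages begin with a C followed by an unbroken stretch of C and T, the 5′ terminal oligopyrimidine tract or TOP, through which mTOR signalling and the RNA-binding protein LARP1 set their translation. MYC is known to raise transcription of ribosomal protein genes, of nucleolar assembly factors and of ribosomal RNA, and the translocation of Burkitt lymphoma keeps it active.

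The transcript starts of some of the genes are shown first, because the tract is what most members with a listed start share and the choice of members did not use it. The genes shown were picked by hand and leave out others named below, such as RPL29 and RPS19. Each window gives 30 bases before and 20 bases from the RefSeq start on GRCh38.p14, written 5′ to 3′ in the sense of the gene. Capitals mark the run of C and T that begins at the start itself. The first 7 carry such a run and the last 3 do not.
RPS9 (chr19:54200828-54200877, plus strand): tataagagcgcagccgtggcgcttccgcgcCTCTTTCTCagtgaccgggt
RPL36 (chr19:5690265-5690314, plus strand): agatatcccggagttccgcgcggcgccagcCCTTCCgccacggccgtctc
RPS25 (chr11:119018324-119018373, minus strand): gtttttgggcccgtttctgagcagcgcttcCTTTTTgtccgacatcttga
RPL35A (chr3:197950160-197950209, plus strand): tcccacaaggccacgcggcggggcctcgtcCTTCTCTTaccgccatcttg
RPS24 (chr10:78033833-78033882, plus strand): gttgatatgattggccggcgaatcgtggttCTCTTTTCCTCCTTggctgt
RPL37A (chr2:216498814-216498863, plus strand): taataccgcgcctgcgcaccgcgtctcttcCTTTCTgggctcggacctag
RPL39 (chrX:119791611-119791660, minus strand): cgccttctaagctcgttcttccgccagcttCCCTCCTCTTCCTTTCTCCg
RPS15 (chr19:1438366-1438415, plus strand): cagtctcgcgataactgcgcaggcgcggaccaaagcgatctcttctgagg
RPS4X (chrX:72277229-72277278, minus strand): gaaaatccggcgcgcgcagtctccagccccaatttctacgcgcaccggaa
RPS29 (chr14:49598691-49598740, minus strand): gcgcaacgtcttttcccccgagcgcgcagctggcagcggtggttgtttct
RPL39, a small protein of the exit tunnel, had the longest run of any member, at 19 bases. RPS24 had 14, RPS9 had 9 and RPL35A had 8.

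A start was counted as TOP where its first base was C and at least the next 4 were C or T. RefSeq starts were found for 46 of the 52 genes, and 34 of the 46 (73.9%) had a TOP start, against 988 of 15843 protein-coding genes (6.24%). The median run among the 34 was 8 bases. The translation factors listed for their TOP messages had one in 12 of 13 genes. The share was 6 of 36 among ribosome assembly factors (16.7%), 6 of 69 among mitochondrial ribosomal proteins (8.7%), 2 of 13 among RNA polymerase I genes, 3 of 8 among ribosomal protein paralogs and 0 of 8 among growth control genes. The 12 members without one at the listed start were RPL10A, RPL19, RPL27, RPL3, RPL32, RPL6, RPL9, RPS15, RPS28, RPS29, RPS4X and RPS7. A start listed a base or more away from the main one in these cells would be missed, so a missing run says only what these letters hold.

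In the 300 bases around the starts, 250 before and 50 from the start, 4 motifs were searched on both strands. The E-box CACGTG, which MYC and other factors bind, was found at 3 of the 46 genes (6.52%) against 10.9% of all protein-coding genes, and at 18 of 36 ribosome assembly factors. CCGGAA, the core that ETS factors such as GABPA bind, was found at 26 (56.5%) against 26.6%. The related lists held it about as often, with 62.3% of mitochondrial ribosomal proteins, 61.5% of translation factors, 53.8% of RNA polymerase I genes and 52.8% of assembly factors. ATGGCG, a core letter string of YY1 sites that can also hold a start codon, was found at 16 (34.8%) against 17.0%, and at 47.8% of mitochondrial ribosomal proteins, 46.2% of translation factors, 38.5% of RNA polymerase I genes and 33.3% of assembly factors. The TATA string TATAAA was found at 3 (6.52%) against 12.4%. None of the 4 strings contains another. A match is a string of letters in a window and not evidence of binding.

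**Figure D1:**
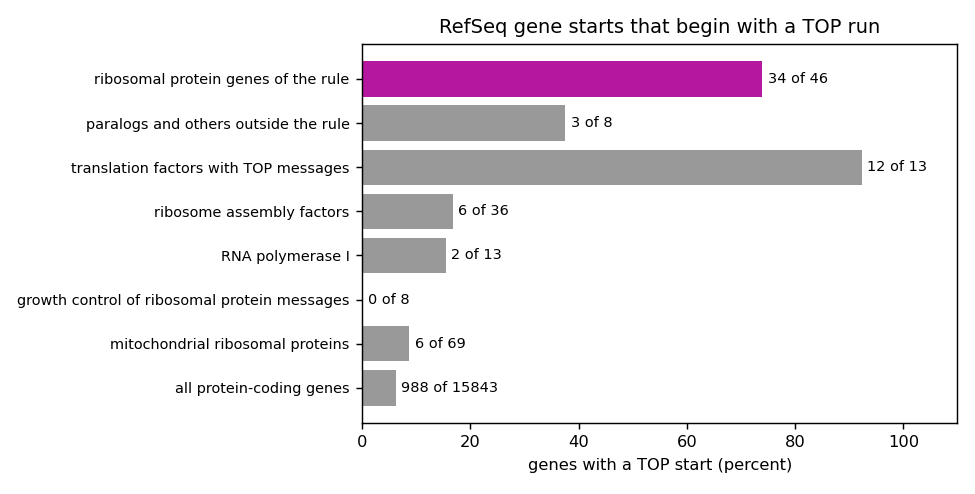
Share of genes with a TOP start, in percent of the genes with a RefSeq start, for the ribosomal protein genes, the related gene lists and all protein-coding genes. The ribosomal protein genes stand at 73.9% and all protein-coding genes at 6.24%.

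The microRNA that separates the groups has the mature sequence below in RefSeq, the same from both of its genes, MIR26A1 (chr3:37969413-37969434, plus strand) and MIR26A2 (chr12:57824658-57824679, minus strand). It is printed because it is the agent of the comparison, with the seed, bases 2 to 8, in capitals. The labels do not say which arm or precursor was expressed.
hsa-miR-26a-5p: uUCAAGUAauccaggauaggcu
Target sites in the 3′ ends of the members were not analysed here.

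The arrays as a whole give the frame for these genes. The median log2 value of an array was 4.36 to 4.44, and arrays of 1 line correlated at 0.9918 to 0.9944 against 0.9415 to 0.9856 between lines. The Namalwa empty array had the largest 3′ minus 5′ difference of the ACTB control probe sets, 3.58 log2 where the remaining 5 arrays had 1.80 to 1.98, and of the GAPDH ones, 0.31 where they had 0.10 to 0.16. Its 18S control level was 6.68, with 8.99 on the Ramos empty array and 7.49 to 7.72 on the others. EZH2 was lower with miR26a in each line by a mean of 0.56 log2, without passing the test (limma, adjusted p = 0.106). All 5 B-cell markers with a probe set reached the level minimum (6.35 to 12.37), with summed levels of 42.8 to 49.8 in the empty and 42.3 to 49.6 in the miR26a arrays. Of the markers of other cells, 2 of 5 for T and NK cells (highest level 5.30), 2 of 4 for monocytes (highest 7.63, ITGAM in Raji), 1 of 2 for red cells (highest 5.83) and 3 of 4 for fibroblasts (highest 7.15) reached it. Of all 12012 genes tested, 0 were called between the groups, so these lists had none either. Their summed levels in the empty and miR26a arrays were 21.2 to 21.6 and 21.4 to 21.5 for T and NK cells, 14.7 to 17.9 and 14.4 to 19.9 for monocytes, 9.0 to 10.4 and 8.8 to 10.5 for red cells, and 18.9 to 20.8 and 18.9 to 20.5 for fibroblasts.

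The ribosomal protein messages were among the brightest signals on the arrays. Of the 546 probe sets in the brightest 1% (mean log2 level of at least 10.94), 69 were members and 47 more carried a ribosomal protein symbol among several, together 116 or 21.2%. The brightest probe set lay in that 1% for 49 of the 52 genes, and their means ran from 11.40 (RPL36) to 13.87 (RPL41). RPL27A (8.41), RPLP2 (6.20) and RPL36A (3.57) were the 3 dimmest. Brightness depends on the probes as well as the RNA, so these levels do not rank the genes by abundance.

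RPL41, the shortest of these proteins, was brightest, at 13.72 and 13.92 in Namalwa, 13.90 and 13.89 in Raji and 13.87 and 13.90 in Ramos (empty, then miR26a, log2). RPL7 followed in brightness, at 13.76 and 13.76, 13.72 and 13.81, and 13.73 and 13.77. RPL37A came next, at 13.73 and 13.68, 13.61 and 13.60, and 13.76 and 13.73. The highest value on an array was 14.14 to 14.22, close above these genes, and how far the signal there still follows the RNA was not tested.

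Across all 6 arrays the members varied little. Their SD over the arrays had a median of 0.119 log2, against 0.263 for the 12012 genes tested. It ran from 0.0231 (RPS16) to 0.351 (RPL27A). The range from lowest to highest array was 0.05 log2 for RPS16, with a median of 0.30 over the 51 genes and a maximum of 1.00 for RPL27A. In the limma fit, which draws each gene's variance towards that of all genes, the standard error of miR26a minus empty was nearly the same for the members (median 0.101) as for all genes (median 0.108).

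**Figure D2:**
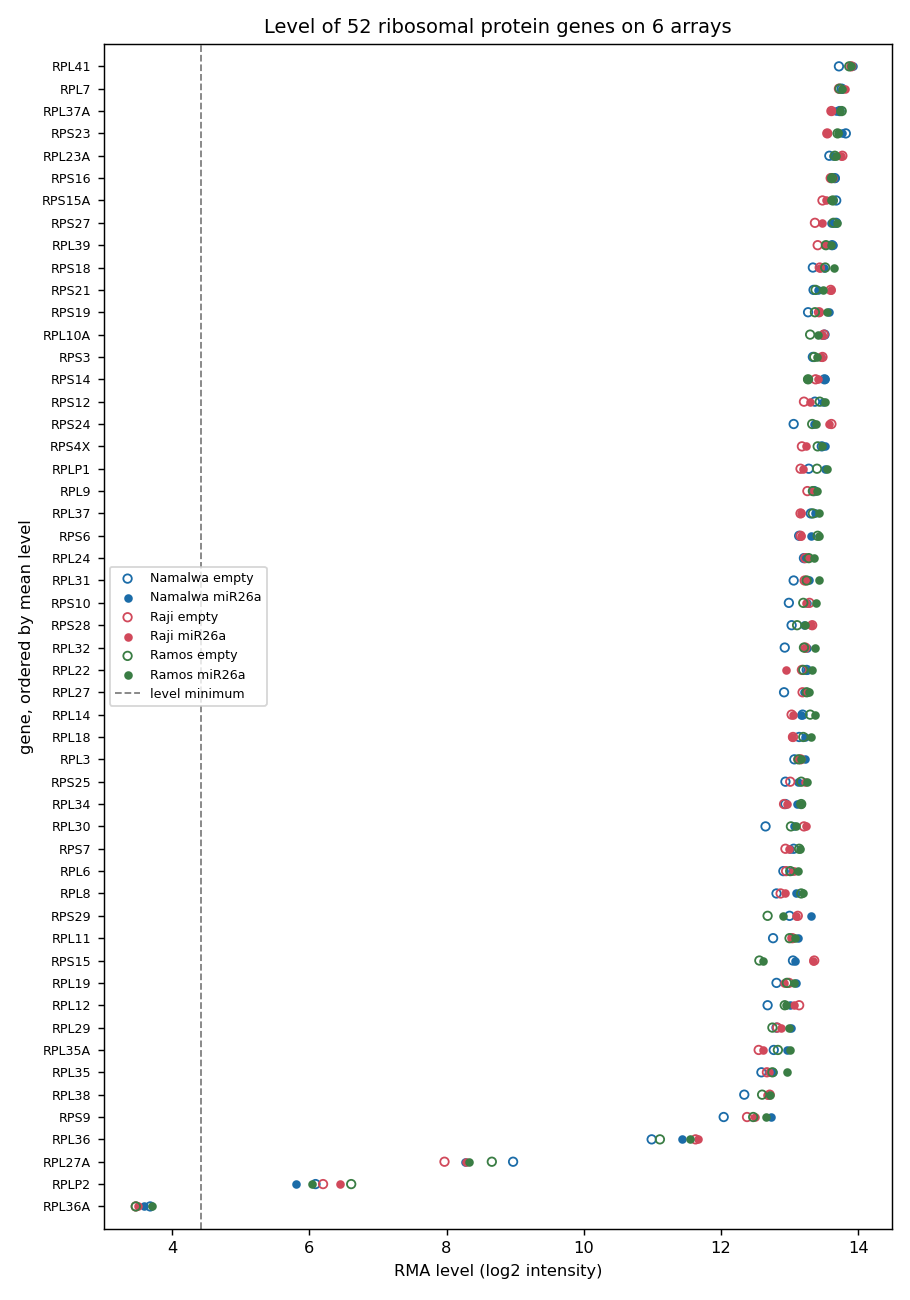
Log2 level of each ribosomal protein gene on each of the 6 arrays, from its brightest probe set, with colour for the line and marker for empty or miR26a. Most genes sit near 13 with their 6 arrays close together, and RPL27A, RPLP2 and RPL36A lie far below.

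With miR26a the ribosomal protein messages stood slightly above empty, and no single gene passed the test. The median difference was 0.07 log2 over the 51 genes (quartiles 0.02 and 0.14), against -0.01 over all genes tested. The large subunit had 0.07 and the small subunit 0.06. In limma, 0 of the 51 members passed at an adjusted p of 0.05, beside 0 of 12012 genes (0%). At an unadjusted p under 0.05, 2 members were higher (3.92%), beside 5.56% of all genes, and 0 were lower, beside 7.33%, which is no excess of single-gene calls among the members.

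The direction was shared more widely than the single calls. The miR26a array was above the empty array in all 3 lines for 23 of the 51 genes (45.1%), beside 15.5% of all genes, 16 of them in the large and 7 in the small subunit. After centring each array on the median of the genes that are not members, it was 14 of 51, beside 13.5%. It was below in all 3 lines for 1 gene, RPL37A (1.96%), beside 19.6%. By line, it was above empty for 40 members in Namalwa (78.4%, beside 47.6% of all genes), 31 in Raji (60.8%, beside 46.7%) and 45 in Ramos (88.2%, beside 48.3%). The members share arrays and a narrow band of brightness, so their signs are not independent and these shares carry no test. With 3 pairs, an exact sign test of 1 value cannot go below p = 0.25.

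The size differed by line. The median difference of the members was 0.15 log2 in Namalwa, 0.02 in Raji and 0.07 in Ramos. Over all genes it was -0.01, -0.02 and -0.01. The largest, in Namalwa, is measured against the empty array with the 3.58 log2 ACTB difference given above: 26 of the 51 members had their lowest level of all 6 arrays there, beside 15.4% of all genes, and the part of that array in the result was not tested. Counting only Raji and Ramos, 26 members were above empty in both lines, beside 25.5% of all genes, and the median without Namalwa was 0.046. The array with the largest number of members at their highest level was Ramos miR26a, with 23 of 51 (45.1%), beside 12% of all genes.

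**Figure D3:**
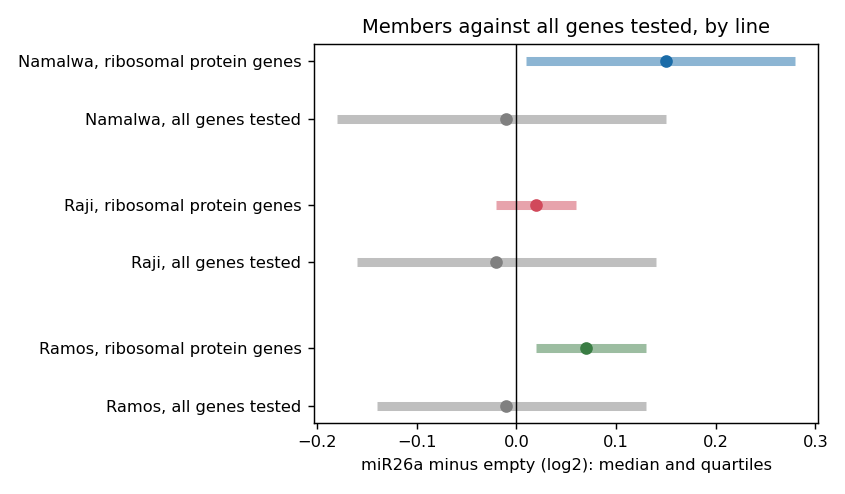
Median (point) and quartiles (bar) of miR26a minus empty, in log2, for the ribosomal protein genes and for all genes tested in each line. The members' medians are 0.15 in Namalwa, 0.02 in Raji and 0.07 in Ramos. Those of all genes lie between -0.02 and -0.01.

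Of the genes above empty in all 3 lines, RPS9 had the largest mean difference. RPS9, a small subunit protein near the channel where the message enters, was at 12.04 and 12.73 in Namalwa, 12.38 and 12.50 in Raji and 12.47 and 12.66 in Ramos. Its Namalwa empty array was the lowest of all, and the groups did not overlap, with Raji miR26a, the lowest of its group, just above Ramos empty, the highest of the other. The difference was 0.33 ± 0.13 log2 (SE, n = 3 pairs; 95% interval 0.04 to 0.62), a 1.26-fold difference, with an unadjusted p of 0.0281 and an adjusted p of 0.314 in limma. Without the Namalwa pair it was 0.15. Its next probe set, at a mean of 11.26, differed by 0.20, with 0.43 in Namalwa, 0.06 in Raji and 0.13 in Ramos.

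RPL36, a large subunit protein, was at 10.99 and 11.43 in Namalwa, 11.63 and 11.66 in Raji and 11.11 and 11.55 in Ramos. Namalwa and Ramos differed by 0.43 and 0.44, and Raji, with the highest empty level, by 0.03. The mean difference was 0.30 ± 0.12 log2 (SE, n = 3 pairs), with a limma adjusted p of 0.318, and the groups overlap. RPL36 had no other probe set above the level minimum.

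RPS25, known for its role in initiation from viral internal ribosome entry sites, was at 12.94 and 13.12 in Namalwa, 13.01 and 13.23 in Raji and 13.17 and 13.26 in Ramos, higher by 0.18, 0.21 and 0.09. Its mean of 0.16 ± 0.10 log2 (SE, n = 3 pairs) had a limma adjusted p of 0.545. The other leaders were RPL30 (0.17), RPL29 (0.16), RPS19 (0.16), RPL31 (0.14), RPL35A (0.14), RPLP1 (0.14) and RPL35 (0.14). Their adjusted p-values in limma were 0.546 or more, and RPS19 and RPL35A are among the genes mutated in Diamond-Blackfan anaemia, a failure of red cell production. RPL31 and RPL35 sit beside the tunnel exit, where chaperones dock. On their next probe sets RPL29 had a mean of 0.21, RPS19 0.15 and RPL31 0.38. RPL35A had 0.04 on its next probe set, with -0.07 in Namalwa, and RPLP1 had -0.09. RPL30 had its difference mostly in Namalwa (0.42, against 0.03 in Raji and 0.08 in Ramos), as RPL11 did (0.38, 0.00 and 0.08).

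RPL37A, a large subunit protein with a zinc finger, was the 1 gene below empty in every line, by 0.04 in Namalwa, 0.01 in Raji and 0.04 in Ramos (limma adjusted p = 0.938). Its next probe set, at a mean of 8.37, had -0.20 in Namalwa, 0.26 in Raji and 0.05 in Ramos. The 2 lowest means belonged to the 2 dimmest tested genes. RPL27A was at 8.97 and 8.27 in Namalwa, 7.97 and 8.28 in Raji and 8.66 and 8.32 in Ramos, a mean of -0.24 ± 0.17 log2 (SE, n = 3 pairs; limma adjusted p = 0.59). Its 3 empty arrays spread over 1.00 log2 while its 3 miR26a arrays lay within 8.27 to 8.32.

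**Figure D4:**
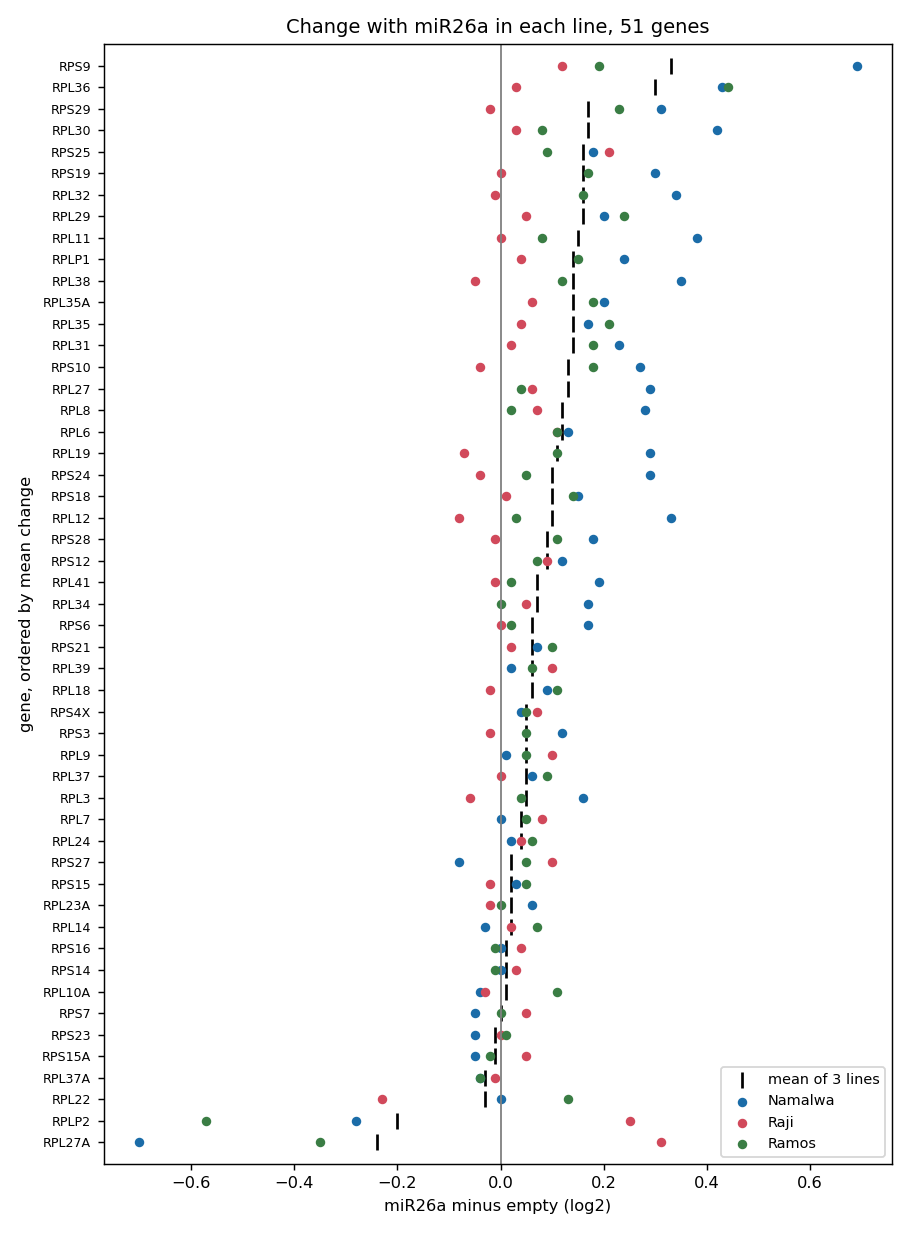
Difference miR26a minus empty, in log2, of each tested ribosomal protein gene in Namalwa, Raji and Ramos (points), with the mean of the lines (tick). RPS9 and RPL36 have the highest means and are the 2 genes whose limma 95% interval, not drawn here, lies above 0.

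By role, the stalk proteins that recruit the GTPases of translation were read from probe sets of very unlike brightness. RPLP1 was at 13.28 and 13.52 in Namalwa, 13.16 and 13.20 in Raji and 13.40 and 13.55 in Ramos. Its partner RPLP2 was at 6.09 and 5.81, 6.20 and 6.45, and 6.61 and 6.04, with a mean difference of -0.20 ± 0.15 log2 (SE, n = 3 pairs; limma adjusted p = 0.627). The 2 proteins form pairs in the ribosome, and their probe sets had opposite signs in Namalwa and Ramos.

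RPL11 forms with RPL5 and the 5S RNA the particle that binds MDM2 when assembly fails. Its level was 12.76 and 13.13 in Namalwa, 13.04 and 13.04 in Raji and 13.00 and 13.08 in Ramos, so the Namalwa empty array alone stood low. The mean difference was 0.15 ± 0.11 log2 (SE, n = 3 pairs; limma adjusted p = 0.622). RPS6, the substrate of the S6 kinases, differed by 0.06 and was higher on both Ramos arrays (13.41 and 13.43) than on the Raji arrays (13.16 and 13.16) or the Namalwa arrays (13.14 and 13.31). RPS4X, encoded on the X chromosome, differed by 0.05, and RPL41 by 0.07.

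Among members that have a close paralog, RPL22, which the EBER RNA of Epstein-Barr virus binds, was at 13.25 and 13.25 in Namalwa, 13.18 and 12.95 in Raji and 13.20 and 13.33 in Ramos. On this brightest probe set it was lower with miR26a in Raji alone. RPL39 differed by 0.06 and RPS27 by 0.02, both within their standard errors of 0.10. Genes with and without a TOP start had the same median difference, 0.07 log2 (33 and 12 tested genes). They ran from -0.24 to 0.33 with the tract and from 0.00 to 0.17 without it.

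Between the lines, very few ribosomal protein genes were called on their brightest probe sets, on arrays where a larger share of all genes was called. The test was the same limma fit with the group as a block, on the 2 arrays of each line, and the 3 comparisons share arrays. Between Namalwa and Raji, 0 of 51 members were called higher in Namalwa, beside 23.4% of all genes, and 2 lower, beside 22.8%. Between Namalwa and Ramos, 1 was higher in Namalwa, beside 8.09%, and 0 were lower, beside 6.57%. Between Raji and Ramos, 1 was higher in Raji, beside 26.1%, and 1 lower, beside 24.4%. The members' median differences were 0.00, -0.06 and -0.06 log2 in that order, with -0.05, 0.00 and 0.06 over all genes. The called counts moved with the settings: with an intensity trend and robust prior they reached 11 of 51 for Namalwa against Raji (21.6%, beside 47.2% of all genes in either direction), 3 for Namalwa against Ramos (5.88%, beside 16.5%) and 15 for Raji against Ramos (29.4%, beside 51.2%). With no moderation they were 1 (beside 4.08%), 0 (beside 0%) and 2 (beside 8.23%).

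RPS15, a small subunit protein needed for late assembly and export of the subunit, stood furthest apart between lines. Its level was 13.05 and 13.08 in Namalwa, 13.36 and 13.34 in Raji and 12.56 and 12.61 in Ramos. The 2 arrays of each line lie within 0.05 log2 of each other and no 2 lines overlap. Raji was 0.76 ± 0.12 log2 above Ramos (SE, n = 2 arrays per line), 1.70-fold, with a limma adjusted p of 0.000586, and this call was kept in every alternative tried, without each array in turn included. Namalwa was 0.48 ± 0.12 log2 above Ramos, 1.40-fold (limma adjusted p = 0.027). That call was lost without any 1 of the 4 arrays, at a limma adjusted p of 0.111 without Namalwa empty, 0.114 without Namalwa miR26a, 0.241 without Ramos empty and 0.154 without Ramos miR26a, while the difference stayed between 0.46 and 0.51. It was also lost with no moderation (0.189). RPS15 has no TOP run at its listed start in the window shown above, and its second probe set was below the level minimum.

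The called differences between Namalwa and Raji were RPL36 and RPS24. RPL36 was lower in Namalwa (10.99 and 11.43) than in Raji (11.63 and 11.66) by 0.43 ± 0.14 log2 (SE, n = 2 arrays per line), 1.35-fold, with a limma adjusted p of 0.0324. RPS24, mutated in some cases of Diamond-Blackfan anaemia, was at 13.06 and 13.35 in Namalwa and 13.61 and 13.57 in Raji, lower by 0.39 ± 0.13 log2 (limma adjusted p = 0.0366). For both genes the Namalwa empty array was the lowest of the 6. Neither call held without it (limma adjusted p = 0.211 and 0.282, differences -0.33 and -0.25) or without Raji empty (0.324 and 0.228, differences -0.23 and -0.28), and RPL36 was at 0.0517 without Namalwa miR26a. Both were lost without the group block (0.1 and 0.0521) and with no moderation (0.227 and 0.181), and RPS24 also on the 4 arrays of the 2 lines alone (0.0528) and with no level minimum (0.054).

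RPL35A was lower in Raji (12.55 and 12.61) than in Ramos (12.83 and 13.01) by 0.34 ± 0.12 log2 (SE, n = 2 arrays per line; limma adjusted p = 0.0434). The arrays do not overlap. The call was lost without each of the 4 arrays (limma adjusted p = 0.0687 without Raji empty, 0.197 without Raji miR26a, 0.188 without Ramos empty and 0.251 without Ramos miR26a) and, at 0.0716, without the group block. It was also lost centred on genes that are not members (0.07), with no level minimum (0.0638), with no moderation (0.0854), on the mean of probe sets (0.0642) and on the second brightest (0.197). Its next probe set, of the same mean level, gave -0.23.

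**Figure D5:**
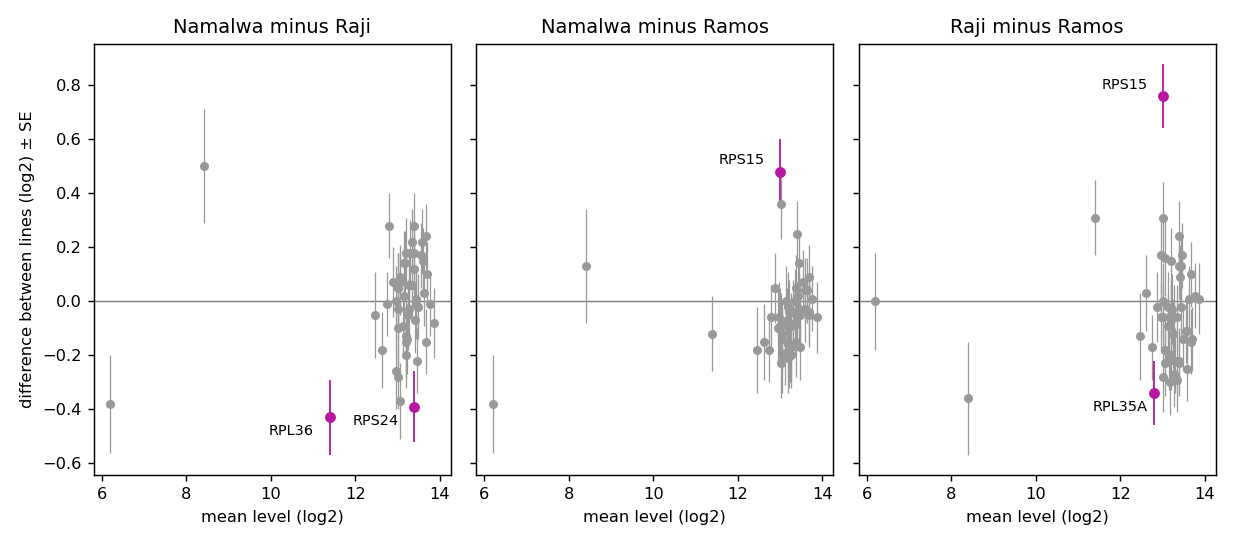
Difference between lines, in log2 ± SE, of each tested ribosomal protein gene against its mean level, with a panel for each pair of lines. Genes called in a pair are coloured and named. They are RPL36 and RPS24 for Namalwa minus Raji, RPS15 for Namalwa minus Ramos, and RPS15 and RPL35A for Raji minus Ramos.

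Genes with more than 1 probe set gave a second reading of the same gene. Of the members, 33 had more than 1 probe set and 30 had more than 1 above the level minimum. In 10 of the 30 the probe sets disagreed in the sign of the mean miR26a difference. Between the brightest and the dimmest of them the sign was shared in 21 of 30, beside 3567 (62.0%) of the 5750 genes with such a pair. The widest gaps in brightness were those of RPS14 (9.86 log2), RPS6 (9.73), RPL35A (9.71), RPLP1 (8.83) and RPS15 (8.73), where the dimmest probe set was near or below the level minimum.

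The dimmest probe set above the minimum differed more between lines than the brightest in most members. Over the 30 genes the median size of the Namalwa minus Raji difference was 0.14 log2 on the brightest probe set and 0.26 on the dimmest, and the dimmest had the larger difference in 24 genes (80.0%). Over the 5750 genes with such a pair, the medians ran the other way, 0.39 on the brightest and 0.32 on the dimmest, which was larger in 45.0%. For Namalwa minus Ramos the members had 0.07 and 0.14 and all genes 0.19 and 0.20. For Raji minus Ramos the members had 0.16 and 0.21 and all genes 0.41 and 0.35. The median level of the members' brightest sets was 13.28 and of their dimmest 6.62, a wider gap than the 7.41 and 5.47 of all genes, and the part of this gap in the result was not tested.

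RPS24 shows the gap for 1 gene. Its dimmer probe set was at 5.87 and 5.64 in Namalwa, 7.11 and 7.71 in Raji and 5.61 and 5.99 in Ramos, a Namalwa minus Raji difference of -1.66 log2 there and of -0.39 on the brightest. RPS21, a small subunit protein, was at 9.02 and 9.40 in Namalwa against 10.04 and 10.12 in Raji on its dimmer probe set, a difference of -0.87 where the brightest had -0.22. RPS28 had -0.88 on its second probe set and -0.20 on the brightest. These probe sets keep the direction of the brightest with a larger size.

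In RPS29 and RPL31 the dimmer probe sets changed the picture. RPS29 had -1.10 on its dimmer probe set where the brightest had 0.05. RPL31 had 0.92 on one dimmer probe set and -0.80 on another, where the brightest had -0.05. RPL22 kept its direction, with 0.45 and 0.80 on its 2 dimmest sets and 0.18, 0.16 and 0.13 on the others. Whether the probe sets of a gene read the same transcripts was not tested. RPS21, RPS28, RPS29, RPL22 and RPL31 were taken up here after their values were seen.

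Between the groups 0 of all 12012 genes tested were called (limma), so the lists of other genes of ribosome production had none either. Of all genes, 15.5% were above empty in all 3 lines and 19.6% below, which stand beside the list counts of this and the next paragraph. These counts include the Namalwa pair and were not repeated after centring. Of 16 translation factors with TOP messages tested, 11 were above empty in all 3 lines and 0 below, with a median of 0.12 log2. EIF4B, a helper of the initiation helicase, had 0.32 and EIF3F 0.29. Of 37 ribosome assembly factors, which work in the nucleolus, 1 was above and 12 below in all 3 lines, with a median of -0.07. DDX21 and TCOF1 both had -0.25. These 2 lists lie on either side of the all-gene median of -0.01, the first on the side of the ribosomal proteins.

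Of 14 genes of RNA polymerase I, which transcribes ribosomal RNA, 1 was above and 2 below in all lines (median 0.02; RRN3 0.35, UBTF -0.16). Of 75 mitochondrial ribosomal proteins, 6 were above and 16 below (median -0.02; MRPS12 0.36, MRPS28 -0.33). The 16 are near the 19.6% of all genes that were below in all lines. Of 9 paralogs and related proteins, 0 were above and 0 below (median -0.03; FAU 0.24, RPL22L1 0.23), and of 4 snoRNA host RNAs, 2 were above and 0 below (median 0.18; EPB41L4A-AS1 0.33, SNHG32 0.19). Of 10 growth control genes, 2 were above and 1 below (median 0.03). The last was LARP1, the binder of TOP messages, at 11.28 and 10.48 in Namalwa, 11.24 and 10.94 in Raji and 11.26 and 10.87 in Ramos. All 3 miR26a arrays lie below all 3 empty arrays, and the difference of -0.50 ± 0.12 log2 (SE, n = 3 pairs) did not pass (limma adjusted p = 0.13). MYC was at 10.81 and 10.89, 10.37 and 10.27, and 11.33 and 11.60.

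Between lines a larger share of each of these lists was called than of the cytosolic ribosomal proteins, as was the case for all genes. Of all genes, 46.1% were called in either direction for Namalwa against Raji, 14.7% for Namalwa against Ramos and 50.5% for Raji against Ramos. The list counts here and in the next paragraph stand beside these shares. Assembly factors lay near the first share and above the others, and translation factors lay below all of them. Of the 75 mitochondrial ribosomal proteins, 46 were lower and 5 higher in Namalwa than in Raji (median -0.44 log2), 39 were higher and 4 lower in Raji than in Ramos (median 0.39), and 0 higher and 2 lower in Namalwa than in Ramos. Of the 37 assembly factors, 8 were higher and 9 lower in Namalwa than in Raji, 1 and 9 against Ramos, and 3 higher and 18 lower in Raji than in Ramos. The 9 paralogs and related proteins had 5 lower in Namalwa than in Raji and 5 higher and 1 lower in Raji than in Ramos. RPS27L, a p53-responsive paralog of RPS27, was 1.37 log2 higher in Raji than in Ramos (limma adjusted p = 2.68e-05), while RPS27 itself was 0.25 lower and did not pass (limma adjusted p = 0.123). RPL26L1 was 1.42 log2 higher in Raji than in Ramos (limma adjusted p = 1.23e-05), and RPL36AL was 0.79 log2 higher in Namalwa than in Ramos (limma adjusted p = 0.00296). MYC was lower in Namalwa by 0.61 log2 (limma adjusted p = 0.0148) and in Raji by 1.14 log2 (limma adjusted p = 8.62e-05) than in Ramos.

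The 16 translation factors tested had 1 higher and 4 lower in Namalwa than in Raji, 1 and 0 against Ramos, and 4 and 1 in Raji against Ramos. RNA polymerase I genes had 4 and 3, 0 and 3, and 2 and 7 in the same order. Growth control genes had 3 and 1, 0 and 2, and 1 and 3, led by EIF4EBP1, an inhibitor of cap-dependent initiation under mTOR control, which was 3.85 log2 lower in Raji than in Ramos (limma adjusted p = 2.02e-08). The snoRNA hosts had 3 and 0, 0 and 1, and 1 and 3.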

How the data were processed

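Biotin-labelled total RNA of 6 samples was read on U133 Plus arrays of Affymetrix. The authors deposited RMA values, which are intensities in log2 per probe set (GCOS and RMA, per the submitters' processing notes, versions not given in the sources used here). RMA gives all arrays 1 distribution, so a shift of all RNAs, or of a large share of the brightest, is partly hidden. The number of arrays limits the precision, and depth does not apply.

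Probe sets were named from GEO's platform annotation (41091 with 1 symbol, 1801 with several, 11721 with none, 62 controls). Of those with 1 symbol, 41037 had an Entrez gene ID found in RefSeq (GRCh38.p14), whose symbol was then used, whether or not it differed. Members kept the platform symbol. The brightest probe set stood for a gene, and 12012 genes with a mean of at least 4.42 were tested. limma (3.58.1, R 4.3.3) was fitted to all 6 arrays with line and group as terms. p-values were adjusted by Benjamini-Hochberg over all genes tested, at a threshold of 0.05. The line pairs the groups, since both arrays of a line come from that line. The correlation of their deviations from the group means was 0.861 (Namalwa), 0.950 (Raji) and 0.917 (Ramos). The scripts were tested on simulated data. Start windows come from a RefSeq table of GRCh38.p14.

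The members and lists were chosen with earlier results of these data known. Genes were named by rule: the 10 largest differences in each direction among members of 1 sign in all 3 lines, the called members of each pair of lines, members chosen by role, the 3 brightest and 3 dimmest, the 5 with the widest gap between probe sets, and 2 genes of each other list. Any other name, the count over Raji and Ramos alone and the comparison of bright with dim probe sets were added with the values in view. The alternatives were a fit without the block, the line as a random block, other scalings, level minimums and probe set rules, other variance models, and leaving out lines or arrays.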

Additional observations from a re-analysis of the deposited data

Results flagged for a closer look

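For 3 ribosomal protein genes the miR26a difference ran in opposite directions between lines by at least 0.1 log2. RPL22 had -0.23 in Raji and 0.13 in Ramos on its brightest probe set. In the same order its other probe sets had -0.15 and 0.13, -0.14 and 0.01, -0.05 and 0.18, and 0.09 and 0.16. RPL27A had -0.70 in Namalwa and -0.35 in Ramos, but 0.31 in Raji. RPLP2 had -0.28 in Namalwa and -0.57 in Ramos, but 0.25 in Raji. Each line gave 1 pair of arrays, so the difference between lines was not tested, and RPL27A and RPLP2 are the dimmest members above the level minimum.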

How the results depend on the processing

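The line pairs the groups, and with no replicate block the count of members called between miR26a and empty was 0, as it was in every alternative run, with a median difference of 0.07 log2. Of all genes, 1.69% were called without Raji, 0.191% without Ramos and 0.849% under the intensity trend. Stricter level cutoffs gave 0.699% (75th percentile) and 1.05% (95th), and the remaining runs 0%. Beside shares this small, a count of 0 does not set the members apart. The count of members above empty in all 3 lines (23, beside 15.5% of all genes) was 14 after centring on genes that are not members (beside 13.5%). Without Raji or without Ramos only the other 2 lines had to agree, and it was 39 (beside 28.3%) and 24 (beside 24.1%). On the mean of probe sets RPL37A gave 0, and on the second brightest probe set RPL37A gave 0.04 and RPLP1 -0.09.

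The next counts are of called members in either direction, each beside the share of all genes called in that setting. For Namalwa against Raji (2, beside 46.1%) the count was 0 without the group block (40.6%), 1 with no level minimum (29.3%), 6 with the minimum at the 95th percentile (61.3%), 10 on the mean of probe sets (46.9%), 9 on the second brightest (40.5%), 11 with a robust prior and an intensity trend (47.2%) and, unmoderated, 1 (4.08%). Leaving out 1 array it was 0 (33.9%) to 4 (42.5%). For Namalwa against Ramos (1, beside 14.7%) it was 3 on the mean (16.2%), 2 on the second brightest (13.0%), 3 with the trend (16.5%), 0 with no moderation (0%) and 0 leaving out any 1 array (7.24% to 8.18%). The median (-0.063) was -0.093 on the second brightest and -0.095 to -0.023 leaving out 1 array. For Raji against Ramos (2, beside 50.5%) the count was 1 without the group block (45.1%), 4 centred on all probe sets (49.2%), 1 centred on genes that are not members (50.8%), 1 with no level minimum (33.6%), 7 at the 95th percentile (59.6%), 8 on the mean (52.4%), 8 on the second brightest (45.6%) and 15 with the trend (51.2%). Leaving out 1 array it was 1 (35.3% to 41.1%) to 4 (46.8%). The median (-0.064) was -0.117 and -0.029 under the 2 centrings and -0.112 to -0.025 leaving out 1 array. The cause was not tested. For single genes, 200 values kept direction and side of the threshold, 26 lost the threshold and 3 turned. Most of these values are miR26a minus empty of genes not called in the main fit, which had no call to lose. All 26 losses fell on the called differences between lines, none of them on RPS15 in Raji against Ramos.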
